A study of Homo sapiens with 6 samples.

Results

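Cytosolic ribosomal proteins are the protein components of the machine that makes all cellular proteins outside mitochondria. They were examined here as 83 of the 16536 genes in the deposited expression table, namely every gene whose symbol has the form of a ribosomal protein of the small subunit (RPS, 32 genes) or of the large subunit (RPL, 51 genes). The choice rested on symbols alone and includes the paralogs RPL3L, RPL7L1, RPL22L1, RPL26L1, RPL39L and RPS27L. All 83 passed the filter on low values, so none was left out of the test.

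All libraries are of SCC4, an established human line that grew out of a tongue squamous carcinoma. Total RNA of 3 parental libraries, from the primary attached cells, was compared with that of 3 sphere libraries, from cells isolated in suspension culture that the submitters describe as cancer stem cells. Both groups are the same unmodified line, no agent or allele is named, and the labels do not say whether the replicates were separate cultures, so p-values measure only the spread between these libraries. Values are normalised expression on a TPM-like scale set by the authors, called units here, with totals of 885258 to 1134102 units per library, and the read depth behind them is unknown.

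Each ribosomal protein is, as a rule, built into the ribosome in a fixed number of copies, and free surplus is degraded. Their mRNAs are abundant, short and long-lived, and most begin with a terminal oligopyrimidine tract, a C followed by a run of pyrimidines, through which mTOR and the binding protein LARP1 control how much of each mRNA is translated. Loss of a single copy of many of these genes causes Diamond-Blackfan anaemia, an inherited failure of red-cell production. Many of these genes also have processed pseudogene copies in the genome. Among the 83 genes, 77 had at least 1 pseudogene named after them in GENCODE release 29, and short reads may be split among such copies, so the levels of single genes are uncertain to that extent.

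The pyrimidine tract is shown for genes on which the results below turn. Of the 83 genes, 66 had an entry in the RefSeq promoter table (build GRCh38.p14). The window searched ran from 10 bases before to 20 bases from the annotated start, on the gene's own strand, and the measure was the longest unbroken run of C and T. A run of at least 8 bases was found in 50 of the 66 genes (75.8%), against 12.6% of all 27305 promoters of the table. The 3 genes whose level differed most between libraries all had such a run. They are RPS18 (chr6:33272065-33272094, plus strand), RPS10 (chr6:34426050-34426079, minus strand) and RPS28 (chr19:8321486-8321515, plus strand). So did RPS24 (chr10:78033853-78033882, plus strand) and RPL36A (chrX:101391001-101391030, plus strand), which were higher in sphere cells. The pairs RPL26 (chr17:8383174-8383203, minus strand) with RPL26L1 (chr5:172958719-172958748, plus strand) and RPS27 (chr1:153990752-153990781, plus strand) with RPS27L (chr15:63157458-63157487, minus strand) are shown because the main gene has the run and the paralog does not. That is not the rule for such pairs, since RPL22 and its paralog RPL22L1 both have a run, of 11 and 10 bases, and in RPL3 the longest run was 5 bases. RPL26L1 has a second annotated start, where the longest run was also 3 bases. Capitals mark the longest run of C and T.
RPS18: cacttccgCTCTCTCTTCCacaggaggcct
RPS10: catgCTCCTTCCTTTCCagccccggtaccg
RPS28: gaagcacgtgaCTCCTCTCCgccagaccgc
RPS24: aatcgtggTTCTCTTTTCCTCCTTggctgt
RPL36A: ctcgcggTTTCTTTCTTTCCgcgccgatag
RPL26: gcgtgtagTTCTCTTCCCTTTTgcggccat
RPL26L1: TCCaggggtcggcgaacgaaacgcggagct
RPS27: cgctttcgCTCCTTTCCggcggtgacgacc
RPS27L: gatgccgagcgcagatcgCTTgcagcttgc

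Before the results, the libraries themselves need description, because 3 of them stand apart. All 12 markers of squamous epithelium were present in every library, with summed levels of 9570 to 10429 units in parental and 30712 to 32519 units in sphere libraries. Of 19 markers of red-cell precursors, 10 were in the table. Summed per library, they reached 1910 units in parental replicate 2, 1323 in parental replicate 3 and 1268 in sphere replicate 2. The make-up of these sums differed. In parental replicate 2 HBG2 alone stood at 1000 units, while KLF1 was at 0.0179, GATA1 at 0.00671 and ALAS2 at 0 units. KLF1, GATA1 and ALAS2 were at 32.7, 10.6 and 0 units in parental replicate 3. In sphere replicate 2 they were at 16.3, 6.51 and 3.26 units. In the remaining libraries the sums were 0 (parental replicate 1), 1.33 (sphere replicate 1) and 0.334 units (sphere replicate 3). In parental replicate 1 all 10 were listed at 0, globin genes included. Of 6 fibroblast and 6 leukocyte markers 3 each were in the table, with sums of 7.53 to 9.77 and 69.8 to 84.3 units in parental and 25.2 to 30.3 and 89.9 to 97.6 units in sphere libraries. The rise of the fibroblast sum lay in LUM, at 0.873 to 1.01 units in parental and 18.3 to 23.8 units in sphere libraries. COL1A1 was lower, at 6.59 to 8.07 and 5.18 to 6.05 units, and COL1A2 did not exceed 1.14 units. The 3 libraries with high sums of red-cell markers carried higher levels of many ribosomal protein genes, as described next. The part of red-cell and other such transcripts in that pattern was not tested. In such bulk samples a change in the number of cells of a kind and a change in RNA per cell cannot be told apart.

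Ribosomal protein genes took 9.81%, 12.6% and 11.9% of the library total in parental replicates 1 to 3, and 9.97%, 15.03% and 9.59% in sphere replicates 1 to 3. The groups overlapped. The 3 libraries almost free of erythroid transcripts, parental replicate 1 and sphere replicates 1 and 3, lay between 9.59% and 9.97%, and the other 3 were all above them.

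**Figure D1:**
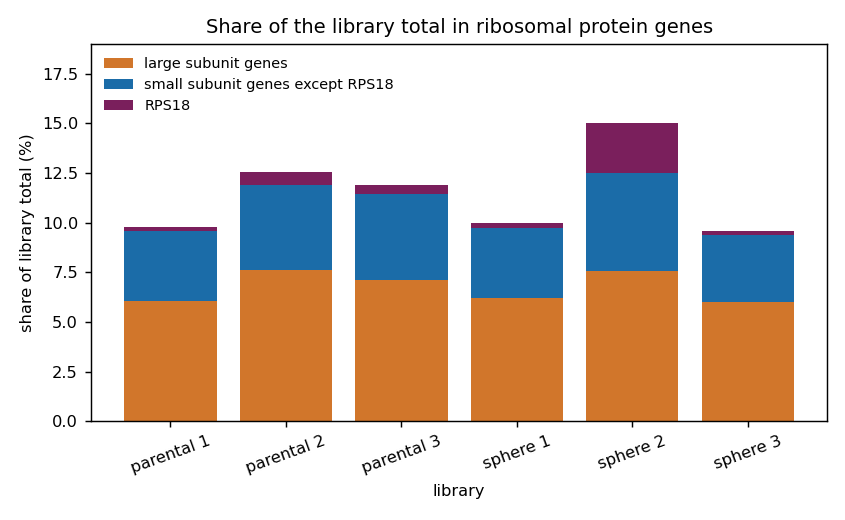
Share of each library's total (%, vertical axis) taken by large subunit genes, small subunit genes other than RPS18, and RPS18, in the 6 libraries (horizontal axis). The total is 9.59% to 9.97% in parental replicate 1 and sphere replicates 1 and 3, and reaches 15.03% in sphere replicate 2, where RPS18 alone takes 2.54%.

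The large subunit genes summed to 6.04%, 7.61% and 7.10% of the total in the parental libraries and to 6.22%, 7.55% and 6.02% in the sphere libraries. The small subunit genes summed to 3.77%, 4.96% and 4.80%, and to 3.75%, 7.48% and 3.57%. Both subunits were thus raised in the same 3 libraries. The ratio of the small to the large sum was 0.625, 0.652 and 0.676 in parental cells and 0.603, 0.990 and 0.593 in sphere cells. Sphere replicate 2 was the highest of all and the other sphere libraries the lowest, so the groups overlapped. Without RPS18 the ratio in sphere replicate 2 became 0.654, and the other 5 libraries lay between 0.554 and 0.608. The mean ratio of sphere minus parental libraries was 0.0775, -0.0533 without sphere replicate 2, 0.0042 without RPS18 and -0.027 without the 3 libraries with erythroid transcripts.

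Single genes that stood apart were found by a fixed rule, a library lying at least 1.5 times above, or below, both of its group mates. Of the 83 ribosomal protein genes, 28 (33.7%) met it in at least 1 library, against 21% of all tested genes and 13% of the 1527 tested genes outside the family whose mean reached 100 units. The libraries involved were few. Sphere replicate 2 was high for 23 genes (27.7%), against 3.70% of all tested genes. Parental replicate 1 was low for 12 genes (14.5%, against 1.99%), parental replicate 2 was high for 8 (9.64%, against 4.13%) and parental replicate 3 for 2 (2.41%, against 4.52%). In the same order, the shares among the 1527 genes were 5.04%, 3.6%, 7.6% and 1.9%. The family thus lay near this background in parental replicates 2 and 3. No ribosomal protein gene stood apart in sphere replicate 1 or 3. By subunit, 12 of 32 small subunit genes (37.5%) and 16 of 51 large subunit genes (31.4%) met the rule, and all 12 of the former did so in sphere replicate 2.

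The 28 summed to 3.36%, 6.30% and 5.12% of the parental totals and 3.31%, 8.80% and 3.21% of the sphere totals. The other 55 summed to 6.44%, 6.28% and 6.78%, and to 6.67%, 6.22% and 6.39%. These sums describe a split that was made on the same values, and they are no test.

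**Figure D2:**
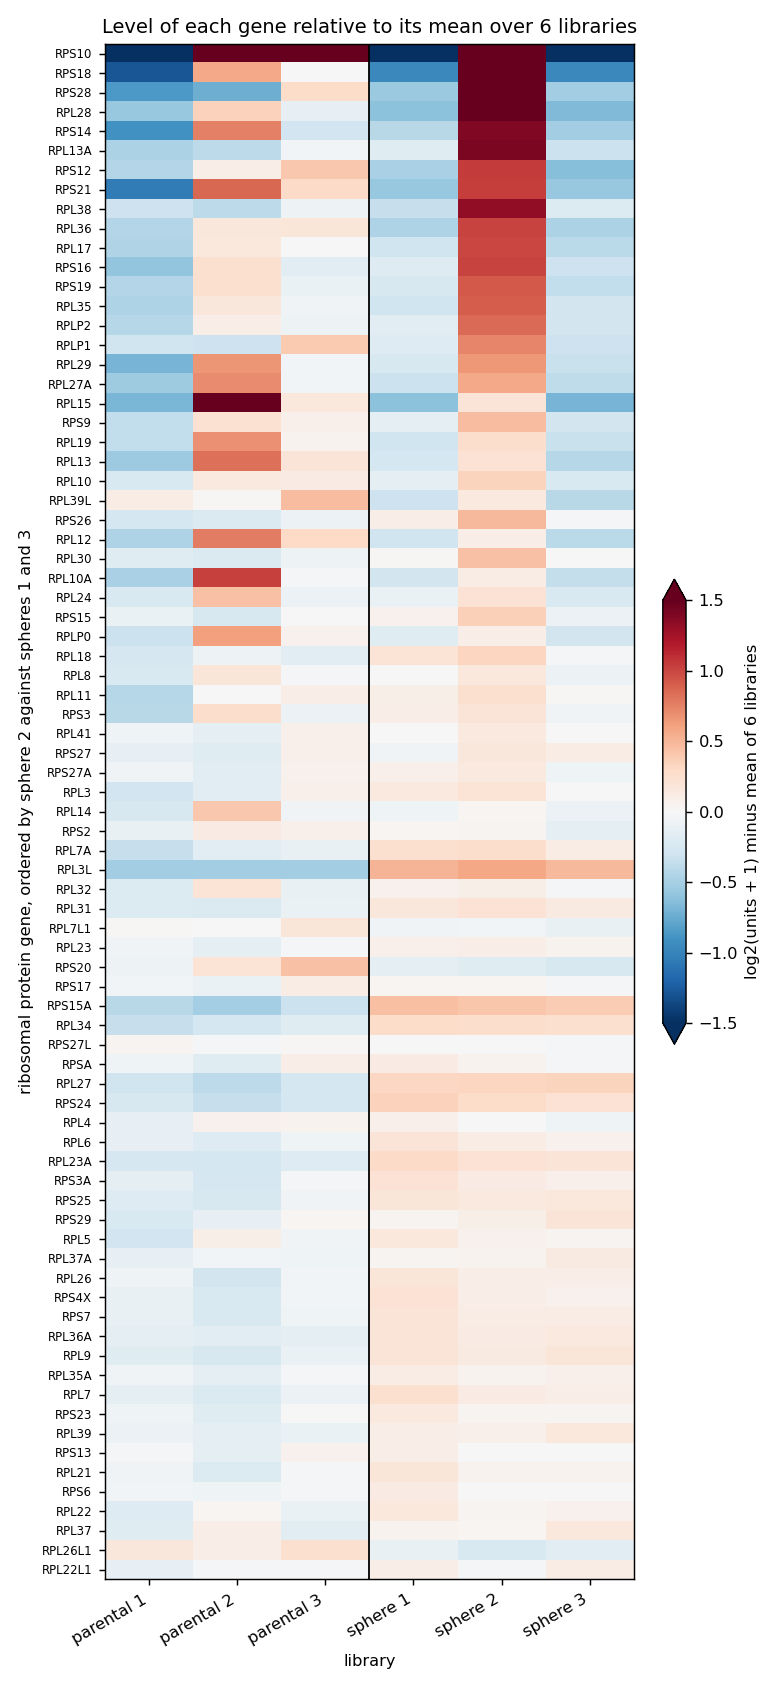
Level of the genes reported (rows) in each library (columns), as log2(units + 1) minus the mean over the 6 libraries, with genes ordered by sphere replicate 2 against sphere replicates 1 and 3. Colours stop at 1.5 in either direction, which RPS10, RPS18, RPS28, RPL28 and RPL15 pass. Genes at the top are high in sphere replicate 2 and low in parental replicate 1, while genes toward the bottom differ little within a group.

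RPS18, a protein of the small subunit's head that contacts the large subunit, showed the largest range in absolute level. Parental cells had 1870, 6750 and 4566 units of it and sphere cells 2340, 28801 and 2330 units. Sphere replicate 2 was 12.3 times the mean of its group mates, and parental replicates 2 and 3 were 3.61 and 2.44 times parental replicate 1. The sphere mean was 11157 ± 15280 units and the parental mean 4395 ± 2445 units (SD, n = 3 each). The log2 fold change was 0.48 (SE 1.10, limma adjusted p = 0.735), and it became -0.73 without sphere replicate 2 and -0.04 without parental replicate 1. Among tested genes outside the family, the 5 with the highest Pearson r to RPS18 over the 6 libraries were COX8A (0.994), a subunit of cytochrome c oxidase, the metallothionein gene MT1G (0.966), the snoRNA host gene SNHG19 (0.962), AC026979.2 (0.960) and SNRPF (0.958), a core protein of spliceosomal particles. COX8A stood at 1406, 2107 and 1747 units in parental and 1404, 3365 and 1362 units in sphere libraries, the same order of libraries within each group.

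RPS10, a head protein beside the mRNA entry channel that is marked with ubiquitin on stalled ribosomes, was the gene with the widest range relative to its level. It was at 1.75, 99.8 and 138 units in parental and 5.34, 78.4 and 4.08 units in sphere libraries. The lowest values are only a few rounding steps, since low values in a library lie on steps of about 0.873 to 1.14 units. In parental replicate 1 its 1.75 units lay far below the median of 763 units for small subunit genes in the same library. Its log2 fold change of -1.30 (SE 1.83, limma adjusted p = 0.581) reversed to 1.05 (adjusted p = 0.0212) without the 3 libraries with erythroid transcripts, a fit with 1 parental library that is assumed to vary like the sphere libraries.

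RPS28, which sits in the head near the mRNA exit, differed from RPS18 in its parental pattern. It was at 88.1, 96.8 and 196 units in parental libraries, with only replicate 3 high, and at 110, 852 and 112 units in sphere libraries. Sphere replicate 2 was 7.68 times its group mates. The log2 fold change was 0.88 (SE 0.86, limma adjusted p = 0.44) and became -0.10 without sphere replicate 2. Without the 3 libraries with erythroid transcripts it was 0.33 (adjusted p = 0.0224). Of the 14 head proteins listed, RPS18, RPS10 and RPS28 included, 7 met the rule for standing apart and 7 did not.

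Others followed the RPS18 order with smaller ranges. RPS14, a protein of the small subunit's platform whose loss is known from the 5q deletion form of myelodysplasia, was at 570, 1818 and 877 units in parental and 806, 2804 and 745 units in sphere libraries. RPS21 was at 482, 1812 and 1221 units, and at 672, 2042 and 671 units. In both genes parental replicate 1 and sphere replicates 1 and 3 were the low libraries, and parental and sphere ranges overlapped. RPL28 of the large subunit, at 215, 406 and 292 units in parental and 208, 978 and 201 units in sphere libraries, had the same order.

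A further set was high in sphere replicate 2 but, like RPS18, RPS21 and RPL28, did not meet the rule in parental replicate 2. RPL13A, which in the interferon response of monocytes leaves the ribosome to repress selected mRNAs, was at 1860, 1956 and 2506 units in parental and 2265, 6850 and 2066 units in sphere libraries. RPL38, known in mice for its role in translating Hox mRNAs, was at 178, 168 and 209 units, and at 173, 554 and 192 units. RPS12 was at 2768, 4026 and 4979 units, and at 2673, 7791 and 2412 units, with parental replicate 3 above replicate 2. Thus sphere replicate 2 was high in each, and parental replicate 3 was the highest of the parental libraries in each. RPS16, RPS19, RPL17, RPL35, RPL36 and RPLP2 were also high in sphere replicate 2, at 2.10 to 2.80 times their group mates.

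Another set was led by parental replicate 2. RPL15, a large subunit protein mutated in some families with Diamond-Blackfan anaemia, was at 563, 2830 and 1007 units in parental and 591, 1037 and 560 units in sphere libraries. RPL10A was at 1436, 4095 and 1989 units, and at 1672, 2183 and 1574 units. Parental replicate 2 was the highest of all 6 libraries in both genes, at 5.03 and 2.85 times parental replicate 1. RPL13, RPL19, RPL27A and RPL29 were also high there, at 2.08 to 2.59 times parental replicate 1. RPS9, at 1.59 times the mean of its group mates in sphere replicate 2, and RPL12 and RPLP1 of the stalk also met the rule.

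**Figure D3:**
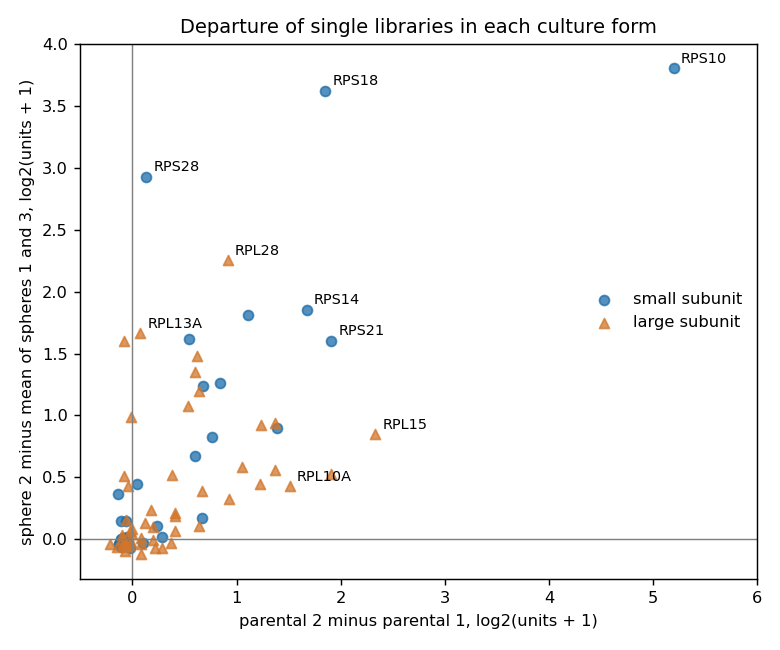
Each point is 1 of the 83 genes, with parental replicate 2 minus parental replicate 1 on the horizontal axis and sphere replicate 2 minus the mean of sphere replicates 1 and 3 on the vertical axis, both as log2(units + 1). Most genes lie near the origin, few lie well below 0 on either axis, and RPS28, RPL13A and RPL15 lie off the diagonal.

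Between parental replicate 2 minus 1 and sphere replicate 2 minus the mean of its group mates, on the log2 scale, Spearman's rho was 0.661 and Pearson's r 0.670 over 83 genes. With parental replicate 3 in place of replicate 2 they were 0.821 and 0.712. Without RPS10, RPS18 and RPS28 the former were 0.646 and 0.580 over 80 genes. Among 1516 genes outside the family whose mean reached 100 units and whose coding sequence is annotated, rho was 0.123 and r 0.678 for replicate 2, and 0.478 and 0.862 for replicate 3, so the family stood above them in rank but not in r. The libraries are the same for every gene, so these values describe 6 libraries and genes are not independent replicates.

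Genes that stood apart also differed in base composition, which the symbol rule did not use. The G and C share of the coding sequence, taken from the principal transcript in GENCODE release 29, had a median of 55.5% in the 28 genes that stood apart and 48.5% in the other 55, with overlapping ranges of 46.0% to 62.3% and 40.4% to 63.0%. Spearman's rho between this share and the departure of sphere replicate 2 was 0.639 over the 83 genes, and 0.321 over the 1516 other genes. Against coding length it was -0.0205 over the 83 genes. For parental replicates 2 and 3, each minus replicate 1, rho with the G and C share was 0.568 and 0.558 over the 83 genes. Over the 1516 other genes these values were -0.167 and 0.067, so the relation in the parental libraries was not shared by them. In the 28 genes with the lowest share, 3 were high in sphere replicate 2 by the rule and the median ratio to group mates was 0.984. In the 27 genes with the highest share, 16 were high and the median ratio was 1.80. RPS2, at 61.8% G and C, went against this order with 5184, 5242 and 4596 units in the sphere libraries. The number of named pseudogenes was lower in genes that stood apart, with a median of 4.5 against 13, and rho with the departure was -0.307. The part of base composition or of copies elsewhere in the genome in the departures was not tested.

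**Figure D4:**
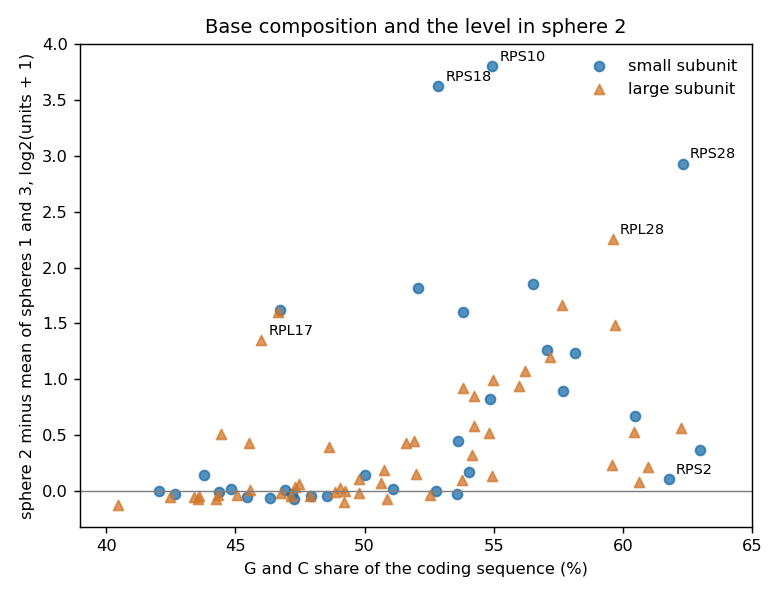
G and C share of each gene's coding sequence (%, horizontal axis) against sphere replicate 2 minus the mean of sphere replicates 1 and 3 in log2(units + 1) (vertical axis), for the 83 genes. Below 45% G and C the largest departure is that of RPL39L, and departures above 1 lie between 46.0% and 62.3%.

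Against this spread, the comparison of sphere with parental cells called few ribosomal protein genes. With limma on log2(units + 1) and Benjamini-Hochberg adjustment over all 15034 tested genes, 19 of the 83 (22.9%) were higher in sphere cells at an adjusted p below 0.05 and 1 (1.20%) was lower. Over all tested genes the shares were 25.8% higher and 22.9% lower. Under the deposited scaling the share of rises was thus near the background and that of falls below it. The median log2 fold change was 0.16 for the 83 genes and 0.04 for all tested genes. Of the 32 small subunit genes 6 were called higher and 0 lower, and of the 51 large subunit genes 13 and 1, with medians of 0.15 and 0.16. The levels of 33 genes did not overlap between groups (39.8%, against 65% of all tested genes), 30 of them above in sphere cells. Leaving out parental replicate 1 brought the counts to 12 and 4 (23.4% and 19.5% of all genes), leaving out sphere replicate 1 to 12 and 1 (21.9% and 19%), and leaving out sphere replicate 2 to 12 and 2 (22.3% and 19.2%). Without all 3 libraries with erythroid transcripts 19 were higher and 2 lower (23.3% and 17% of all genes), 10 of the rises being shared.

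The number of rises also depended on the authors' scaling between libraries. When every library was brought to the same total, the median over all tested genes shifted by -0.14 on the log2 scale. Then 6 ribosomal protein genes (7.23%) were higher and 3 (3.61%) lower, against 15.4% and 25.5% of all tested genes. Calls over all genes then split with 37.7% higher, against 53.0% as deposited. Quantile normalization gave 8 higher (9.64%) and 3 lower (3.61%), against 23.5% and 26.8% of all genes. Scaling to the total of genes outside the family gave 5 (6.10%) and 4 (4.88%), against 16.8% and 31%. Under each of these scalings the shares of rises and of falls were both below those of all genes. The 18 called rises other than RPL3L lay between 0.15 and 0.83 on the log2 scale.

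**Figure D5:**
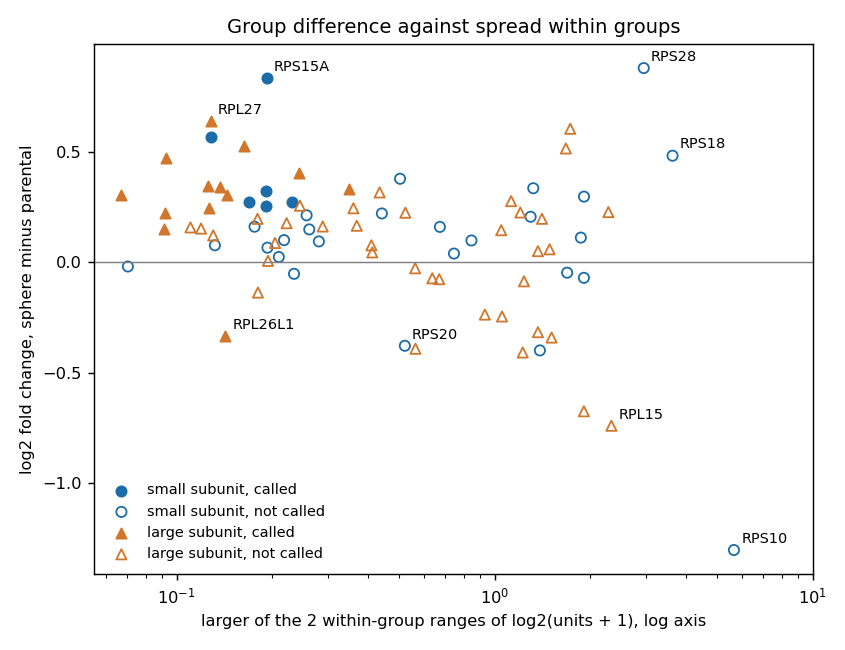
Log2 fold change of sphere minus parental cells (vertical axis) against the larger of the within-group ranges of log2(units + 1) (horizontal log axis) for 82 genes, without RPL3L, which was listed at 0 in parental cells. Filled symbols, called at an adjusted p below 0.05, lie at the left, and RPS18, RPS28 and RPS10 at the right with open symbols.

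Of the genes called, 5 rose and 1 fell under each of the 18 alternative settings, scalings included. RPS15A, a protein of the small subunit's body, rose from 251, 235 and 268.5 units to 460, 450 and 436 units, a log2 fold change of 0.83 (SE 0.06, limma adjusted p = 1.65e-04). It had the largest rise among the called genes detected in both groups, with 0.67 when the scaling was undone. RPL27 rose from 541, 504 and 551 units to 821, 827 and 836 units (log2 fold change 0.64, adjusted p = 2.61e-04). RPS24, which takes part in maturation of the small subunit's rRNA, rose from 583, 542 and 570 units to 875, 834 and 801 units (0.57, adjusted p = 5.33e-04). All 3 are Diamond-Blackfan anaemia genes, and in each the groups were far apart and sphere replicate 2 lay between or beside its group mates.

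RPL34 rose from 89.4, 94.8 and 100 units to 138, 137 and 135 units (log2 fold change 0.53, limma adjusted p = 3.96e-04). RPL23A, the large subunit protein at the tunnel exit on which signal recognition particle docks, rose from 709, 703 and 742 units to 1033, 986 and 969 units (0.47, adjusted p = 8.2e-04). RPL23A has 91 named pseudogenes, the most of the family, and reads may be split among them. RPL7A rose from 3857, 4414 and 4565 units to 5787, 5905 and 5287 units, a log2 fold change of 0.41 (limma adjusted p = 0.0304), and its call was kept in 8 of the 18 alternatives. Of all 19 called rises, 12 were kept in each of the 6 fits without 1 library, RPL31, RPL9, RPS25, RPL36A, RPS7, RPL39 and RPL3L among them. Of these 7, RPL31, RPL9, RPS25, RPS7 and RPL39 were called under the deposited scaling but under none of the other 4 scalings, RPL36A also under quantile normalization, and RPL3L under 4 of the 5, the filter having removed it in the fifth. RPL18, RPL7, RPS3A, RPS4X, RPL6 and RPL37A, like RPL7A, kept it in 0 to 2 of the 6.

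RPL26L1, a close copy of RPL26, was the only gene called lower, from 143, 136 and 150 units to 118, 108 and 114 units (log2 fold change -0.33, SE 0.05, limma adjusted p = 0.00353). Its partner RPL26, a tunnel exit protein, stood at 1925, 1660 and 1966 units in parental and 2295, 2166 and 2152 units in sphere libraries, without overlap, and did not pass the test (0.26, adjusted p = 0.0627), although it did under a filter of 5 units (adjusted p = 0.0435). RPL39 rose from 406, 388 and 404 units to 461, 453 and 483 units (0.22, adjusted p = 0.00941), a call that ended when the scaling was undone (0.06, adjusted p = 0.675). Its paralog RPL39L, known from testis, was at 108, 102 and 138 units in parental and 80.7, 111 and 74.6 units in sphere libraries (-0.39, adjusted p = 0.13), with the groups overlapping through sphere replicate 2. It passed the test as lower without that library (-0.56, adjusted p = 0.0387).

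RPL36A rose from 250, 245 and 249 units to 314, 300 and 306 units (log2 fold change 0.31, limma adjusted p = 0.00115), and with the scaling undone no longer passed (0.14, adjusted p = 0.25). RPL36AL, its retrogene, which the symbol rule leaves out, was at 459, 432 and 468 units, and at 486, 458 and 470 units (0.06, adjusted p = 0.401). RPL7 rose from 2118, 2027 and 2206 units to 2783, 2552 and 2518 units (0.31, adjusted p = 0.0225), a call kept in only 1 of the 6 fits without 1 library. RPL7L1 stood at 106, 106 and 120 units, and at 101, 102 and 97.8 units (-0.14, adjusted p = 0.107), and was called lower when the scaling was undone (-0.30, adjusted p = 0.0429).

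Of the genes in the remaining pairs, RPL3L alone passed the test. RPL22 was at 528, 616 and 564 units in parental and 672, 622 and 634 units in sphere libraries, and RPL22L1, its paralog under RPL22 control in mice, at 26.5, 28.2 and 28.4 units and 31.0, 28.5 and 31.3 units. RPS27 was at 1104, 1060 and 1271 units, and at 1154, 1353 and 1295 units. RPS27L, a p53 target gene, varied little, at 10.6, 10.1 and 10.4 units and 10.3, 10.2 and 10.1 units. RPL3 was at 1539, 1679 and 1976 units, and at 2075, 2167 and 1888 units, while RPL3L, the form of heart and skeletal muscle, was listed at 0 in all parental libraries and stood at 1.04, 1.14 and 1.01 units in sphere libraries, the level of 1 rounding step. RPL3L is among the 19 genes called higher, but no fold is given. Without 1 library RPL22 also passed, lacking parental replicate 2 (0.23 on the log2 scale, limma adjusted p = 0.0299), as did RPL3, lacking parental replicate 3 (0.34, adjusted p = 0.0374). RPL10 was at 984, 1279 and 1257 units, and at 1044, 1454 and 984 units.

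The stalk of the large subunit, which recruits the elongation factors, consists of RPLP0 with RPLP1 and RPLP2, and RPL12 lies at its base. RPLP0 was at 1912, 3649 and 2491 units in parental and 2106, 2552 and 1972 units in sphere libraries. RPLP1 was at 1089, 1081 and 1753 units, and at 1166, 2225 and 1075 units. RPLP2 was at 1605, 2320 and 2046 units, and at 1930, 3915 and 1792 units. RPL12 was at 1339, 3134 and 2269 units, and at 1493, 1963 and 1387 units. None of the 4 passed the test (limma adjusted p of 0.344 to 0.741), and the groups overlapped in each. RPLP0 was called lower under quantile normalization (adjusted p = 0.0356), and RPL12 when parental replicate 1 was left out (-0.74 on the log2 scale, limma adjusted p = 0.0486). Sphere replicate 2 was highest for RPLP1 and RPLP2 and parental replicate 2 highest for RPLP0 and RPL12.

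RPL5 and RPL11 bind the 5S rRNA together and, when free, inhibit the p53 ligase MDM2. RPL5 was at 1602, 2069 and 1889 units in parental and 2171, 2033 and 2000 units in sphere libraries, and RPL11 at 1036, 1380 and 1490 units and 1477, 1637 and 1403 units. Neither passed the test, with limma adjusted p of 0.273 and 0.275. Without the 3 libraries with erythroid transcripts RPL11 had a log2 fold change of 0.47 (adjusted p = 0.0222). Of the 8 tunnel exit proteins, 3 were higher and 0 lower, and of the 22 Diamond-Blackfan anaemia genes 7 were higher and 0 lower, with medians of 0.22 each on the log2 scale, against 0.04 for all tested genes. Over all tested genes 25.8% were higher and 22.9% lower. The counts became 1 and 0, and 3 and 1, with the scaling undone, when 15.4% and 25.5% of all genes were called.

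Levels across the family were uneven on this TPM-like scale, which by its name is per transcript length. In parental replicate 1 they ran from 1.75 units for RPS10, leaving RPL3L aside, to 4709 units for RPS2. RPS29, at 29.2, 31.3 and 35.0 units in parental and 35.2, 36.4 and 39.3 units in sphere libraries, lay far below the median of small subunit genes, which was 763 to 982 units in parental and 822 to 1245 units in sphere libraries. It has 32 named pseudogenes. RPS20, a head protein, was at 1090, 1326 and 1566 units, and at 1036, 1019 and 975 units. It was lower in all sphere libraries without passing the test (log2 fold change -0.38, limma adjusted p = 0.0636). Each of the other 4 scalings called it lower, with -0.54 (limma adjusted p = 0.0258) when the scaling was undone. Without the 3 libraries with erythroid transcripts its log2 fold change was -0.12.

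Some ribosomal proteins are made as fusions with ubiquitin or a ubiquitin-like protein. FAU, which encodes the small subunit protein eS30 under another symbol, was at 457, 1201 and 541 units in parental and 452, 659 and 416 units in sphere libraries, with parental replicate 2 the highest. RPS27A was at 1632, 1517 and 1764 units, and at 1779, 1872 and 1613 units. Neither passed the test, with limma adjusted p of 0.423 and 0.417, and the groups overlapped in both.

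Among 20 further genes with terminal oligopyrimidine tracts, most of them translation factors, 9 were higher and 1 lower in sphere cells, against 25.8% and 22.9% of all tested genes. The median log2 fold change was 0.12, against 0.04. EIF3E, a subunit of initiation factor eIF3, rose from 395, 398 and 385 units to 562, 520 and 533 units (limma adjusted p = 5.91e-04). NAP1L1, EIF4B and EEF1B2 rose with log2 fold changes of 0.39, 0.47 and 0.53. PABPC1, the poly(A)-binding protein, fell by 0.30 on the log2 scale. With the scaling undone 0 were higher and 1 lower, against 15.4% and 25.5% of all genes. Leaving out all 3 libraries with erythroid transcripts gave 8 and 0, against 23.3% and 17%.

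Among 19 tested regulators of ribosomal protein synthesis, 2 were higher and 9 lower, against 25.8% and 22.9% of all tested genes, with a median log2 fold change of -0.19 against 0.04. MTOR, the growth kinase, fell from 34.6, 33.3 and 35.9 units to 23.8, 25.0 and 25.2 units (limma adjusted p = 5.03e-04), and RHEB, its activator, by 0.44 on the log2 scale. LARP1B, a relative of LARP1, fell from 16.8, 17.1 and 16.1 units to 7.22, 5.72 and 6.05 units (adjusted p = 1.45e-04), while SP1, a general transcription factor, rose by 0.34. The list holds both activators and inhibitors of this synthesis. EIF4EBP1 and TSC1, which act as inhibitors, were also among the 9 lower, with log2 fold changes of -1.67 and -0.22. With the scaling undone 0 regulators were higher and 10 lower, against 15.4% and 25.5% of all genes. Without the 3 libraries with erythroid transcripts 3 were higher and 5 lower, against 23.3% and 17%.

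Of 9 dedicated chaperones of single ribosomal proteins, 3 were higher and 2 lower, against 25.8% and 22.9% of all tested genes, and 0 and 2 with the scaling undone, against 15.4% and 25.5%. TSR2, which delivers RPS26, fell from 32.8, 32.3 and 33.1 units to 24.8, 26.1 and 22.2 units (limma adjusted p = 0.003), while RPS26 itself, at 540, 558 and 613 units in parental and 694, 910 and 641 units in sphere libraries, did not pass the test (log2 fold change 0.38, adjusted p = 0.0709). GRWD1, which serves RPL3, fell by 0.22. Of 8 ribosome-bound and dormancy factors, 1 was higher and 4 lower, and 0 and 4 with the scaling undone, beside the same shares of all genes. The lists overlap, since NAP1L1 and RACK1 also count among the rises with oligopyrimidine tracts and LARP1 among the lower regulators. EIF6, which keeps new large subunits from joining small ones too early, fell from 639, 580 and 725 units to 354, 377 and 337 units (log2 fold change -0.86, adjusted p = 7.09e-04). CCDC124 and HABP4 fell by 0.25 and 0.35 on the log2 scale. HABP4 was low, at 6.17, 6.05 and 7.58 units in parental and 5.17, 4.57 and 5.04 units in sphere libraries. Its fall thus spans only a few rounding steps. A fit without the 3 libraries with erythroid transcripts has 1 parental library. There the log2 fold changes were -0.89 for EIF6, -0.25 for CCDC124, -0.23 for HABP4 and -0.18 for LARP1. TSR2 was at -0.47 and GRWD1 at -0.20.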

How the data were processed

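The authors deposited 1 table of normalised expression, treated as a signal on a TPM-like scale because column totals differ. Per the submitters' processing notes, HISAT and Bowtie2 were used (no version stated) with GRCm38.p6, a mouse build, although all genes are human. For the quantifier, annotation and scaling, the sources used here name nothing. Values that were 0 apart from floating-point residue, 3234 in all, were read as 0. Genes reaching 1 unit in 3 or more libraries were fitted on log2(value + 1) with limma 3.58.1 in R 4.3.3, 2 groups, a mean trend, two-sided, with Benjamini-Hochberg adjustment over all tested genes. The pseudocount understates the folds of low genes. The fit was checked on simulated data. The design assumed TPM, and the same test was kept. Errors after ± are SDs. The members and lists were chosen with earlier results of these data known. Named genes were RPS18, RPS10 and RPS28, the called genes with the 6 largest changes in each direction, fixed paralog, stalk and 5S genes, genes that stood apart, and up to 4 genes per other list with the smallest p. PABPC1, EIF4EBP1, TSC1, RPS26, RPS29, RPS20 and RPS2 were named after their values were seen. The alternatives tried changed the pseudocount, the filter, the scaling or the variance model, added a replicate block, or left libraries out. Sequences come from RefSeq and coding sequences from GENCODE release 29. Single values of a few of the genes are not reported here.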

Additional observations from a re-analysis of the deposited data

How the results depend on the processing

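Of 502 values of single genes (28 genes) under the alternatives, 442 kept their direction and side of the threshold, 19 lost the call, 16 gained one and 25 changed sign; the cause of the changes was not tested. The 19 rises and 1 fall became 6 and 3 with the scaling undone, 8 and 3 with quantile normalization, 5 and 4 when scaled to the total of genes outside the family, and 7 and 2 when scaled to the total without mitochondrially encoded genes. In the last of these, 2438 of all 14796 tested genes were higher and 3075 lower. Falls numbered 2 with a filter of 5 units, against 3152 of all 10517 genes then tested. Leaving out 1 library gave 12 to 21 rises and 1 to 4 falls, and a ratio difference of -0.0533 to 0.145. Over all 15034 tested genes rises then numbered 3286 to 4003 and falls 2854 to 3307. With a threshold of 2 times, 19 genes (22.9%) stood apart in place of 28. The shares were then 10.9% of all tested genes and 6.61% of the 1527 others whose mean reached 100 units.

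Sign changes were small for most genes. With the scaling undone RPL22L1 was at -0.0353, RPS27 at -0.0137 and RPLP1 at -0.0171 on the log2 scale. With quantile normalization RPS27 was at -0.0245, RPL26 at -0.015, RPLP1 at -0.0168 and RPL5 at -0.0421. Scaled to the genes outside the family, RPL22L1 was at -0.0333, RPS27 at -0.0115 and RPLP1 at -0.015. Array weights put RPL10 at 0.0167. Without the 3 libraries RPS10 was at 1.05, RPL10 at 0.042, RPLP0 at 0.092 and RPL12 at 0.103. Leaving out 1 library gave ranges of -0.73 to 1.09 for RPS18, -0.10 to 1.37 for RPS28, -0.2012 to 0.0801 for RPL10, -0.4565 to 0.0095 for RPLP0, -0.19 to 0.38 for RPLP1 and -0.0815 to 0.48 for RPLP2.

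Whether replicate numbers pair the libraries cannot be decided from 3 libraries per group. Deviations from the group means correlated at 0.329, 0.121 and -0.273 for numbers 1, 2 and 3. Between parental replicate 3 and sphere replicate 2 the value was 0.341. With the replicate block, 14 ribosomal protein genes were higher and 1 lower, and calls over all genes went from 7315 to 6176. Read depth is unknown, so the counting error behind low values cannot be given.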
